A study of Mus musculus with 2 samples.

Results

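Early thymocytes that carried RNA of 1 or more of Il2ra, Hes1, Dtx1, Myl10 and Ptcra, and none of the CD4 and CD8 genes, were described. They came from 1 wild type and 1 mutant mouse thymus library. Barcodes with 400 or more detected genes were kept if mitochondrial genes gave no more than 10% of their unique molecular identifiers (UMIs). A kept barcode was a member when the 5 genes together had at least 3 UMIs, Cd4, Cd8a and Cd8b1 had 0, Foxp3, Ccr7 and S1pr1 had 0, Cd79a had 0, and C1qa and Lyz2 together had at most 1. Of 3072 kept barcodes 193 were members. These were 32 of 1341 in wild type (2.39%, exact Clopper-Pearson interval 1.64 to 3.35) and 161 of 1731 in mutant (9.30%, 7.97 to 10.8). The cells were selected on measured values, so the 14 genes of the gate are given below as a description only.

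RNA of single thymocytes was counted with a 10x Chromium kit that reads the 3′ end of transcripts (version 2 reagents). The wild type library was labelled wild type. In the mutant library both alleles of NMe carried mutated GATA sites 1 and 2, per its label. The age, sex, strain and number of the animals are not given in the sources used here. With 1 library per genotype there is no replicate and no test, and every difference below is a difference between these libraries. Intervals are given at 95% and describe counting error alone.

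Early thymocytes lack the CD4 and CD8 coreceptors and receive NOTCH signals from the thymic epithelium, under which they commit to the T lineage and switch on the IL-2 receptor alpha chain, encoded by Il2ra. They then rearrange the T cell receptor beta locus, and a beta chain that pairs with the pre-T alpha chain, encoded by Ptcra, allows them to divide and to move on to the CD4+CD8+ stage. NMe is a distant enhancer of Myc that NOTCH1 binds in these cells, and GATA sites are motifs bound by GATA3, a transcription factor that T cell development requires.

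The gate genes themselves were dominated by Myl10 and Il2ra in both libraries. Levels are given as UMIs summed over the members per 1000000 of their UMIs (CPM), from 160351 UMIs in wild type and 638838 in mutant. Il2ra stood at 518 CPM in wild type (interval 412 to 642) and at 872 CPM in mutant (801 to 947), and had at least 1 UMI in 27 of 32 and 132 of 161 members. Hes1, a repressor that NOTCH switches on, stood at 374 and 542 CPM. Myl10, a myosin light chain gene, stood at 917 and 1301 CPM. Dtx1, a NOTCH target, stood at 62.4 and 196 CPM, and Ptcra at 168 and 327 CPM. The median gate sum was 9 UMIs per wild type member and 11 per mutant member. Few cells lay at the threshold: 3 wild type and 7 mutant members had a sum of exactly 3, and 7 and 15 otherwise eligible cells had a sum of 2. The median share of UMIs from ribosomal protein genes was 45.4% at a sum of 3 and 37.6% at a sum of 2 in wild type, and 28.3% and 27.5% in mutant.

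Depth entered the gate. Of 136 wild type and 348 mutant cells with a gate sum of at least 3, 103 and 177 had a Cd4, Cd8a or Cd8b1 UMI and were left out. Their median depth was 9938 UMIs in wild type and 5951 in mutant, against 4358 and 3106 UMIs for those without coreceptor RNA. Members had a median of 4291.5 UMIs (wild type) and 3004 UMIs (mutant), whereas other kept cells had 3310 and 2544.5. With every cell thinned to 1500 UMIs before the gate, members were 1.72% of wild type and 8.81% of mutant cells. With the wild type library's lowest total of 1781 UMIs required in both libraries, they were 2.39% and 10.3%. The libraries shared 1 barcode, and no barcode was a member in both.

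Outside the gate, the members of both libraries carried high levels of Plac8, Cdk6, Notch1 and Notch3 and low levels of Cd52, Ifi27l2a and Satb1, when set against the other cells of the same library. A gene was ranked when its mean level in the members of both libraries was at least 50 CPM and it had at least 20 UMIs, which 2553 genes met, and ratios were taken with 10 CPM added. The gate genes were left out. Of the 2553, 65 (2.55%) were at least 2-fold higher in members than in other cells in both libraries and 32 (1.25%) at least 2-fold lower in both. The level filter was taken on the members, so genes that are silent in them could not be counted as lower.

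Plac8, whose product is a small cysteine-rich protein, had 1509 CPM in wild type members and 99.5 in the other wild type cells, and 1157 and 138 CPM in mutant. Cdk6, a kinase that drives entry into S phase with D cyclins, had 1060 CPM in the members of each library, against 110 and 138 CPM in the other cells. Cdk6 was found in 32 of 32 wild type and 149 of 161 mutant members. Tmem121, which encodes a membrane protein, had 331 and 415 CPM in members and at most 71.2 CPM in other cells. Levels of these genes were high in the members of each library and low in the rest.

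The receptor gene Notch1 had 281 CPM in wild type members and 63.0 in other wild type cells, and 438 and 119 CPM in mutant. Notch3, which NOTCH1 itself activates, had 112 and 111 CPM in the members and 11.1 and 26.3 CPM in the other cells. Cdkn1a, an inhibitor of cyclin-dependent kinases, had 87.3 and 90.8 CPM in members against 6.96 and 7.02 CPM. In wild type its 14 UMIs came from 6 cells, with 42.9% of them in 1 cell. Hdac4, a histone deacetylase gene, and Mpzl2, a cell adhesion gene, were also among the 15 highest ranked, with Ctla2a, Epb41l4b, Plekha7, Ccdc109b, Hspa1a and Jun. Hspa1a and Jun are stress response genes, and they had 37.4 and 81.1 CPM in wild type members and 65.7 and 114 CPM in mutant members.

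Among the 8 lowest ranked genes, Cd52, a surface glycoprotein gene of mature lymphocytes, had 81.1 and 106 CPM in members against 738 and 1347 CPM in other cells. Satb1, a chromatin organiser of later thymocytes, had 355 and 319 CPM against 1035 and 1090 CPM. Ube2c, which encodes a ubiquitin-conjugating enzyme of mitosis, had 118 and 131 CPM against 710 and 450 CPM, and 68.4% of its wild type member UMIs came from 1 cell. Ifi27l2a, Rgs10, Rmnd5a, Emp3 and Ldhb completed the 8.

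**Figure D1:**
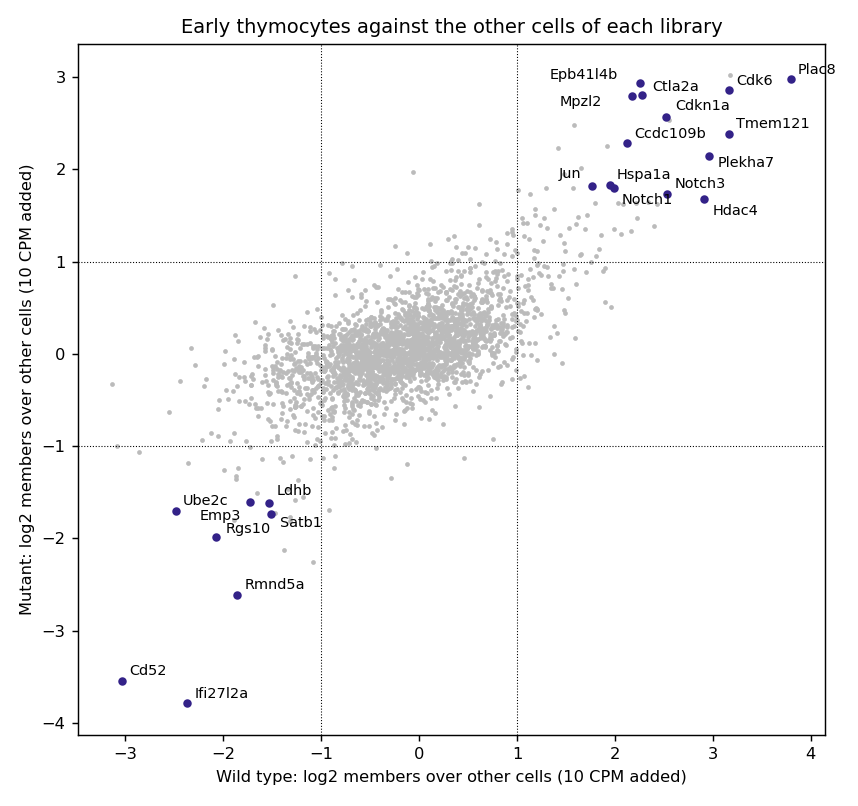
Each point is 1 of the 2553 genes, placed by its log2 ratio of members over the other kept cells in wild type (x axis) and in mutant (y axis), with 10 CPM added; dotted lines mark a 2-fold ratio and dark blue points the genes named in the text. Plac8 and Cdk6 lie at the upper right and Cd52 and Ifi27l2a at the lower left, so that these genes stand apart from the other cells in both libraries.

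Early progenitor genes gave few UMIs. Of 20 genes of multipotent and earliest T progenitors, 9 were detected in wild type and 13 in mutant members, and Flt3, Cd34 and Spi1 were at 0 in both. These detection counts are not comparable, as they rest on 160351 UMIs in wild type and 638838 in mutant. Kit, the stem cell factor receptor gene, had 2 and 10 UMIs. The most abundant of the 20 was Ccr9, a homing receptor that thymocytes keep, with 125 CPM in wild type and 83.0 CPM in mutant members.

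Myc, the gene that the NMe enhancer serves, had a lower level in the mutant members. Myc lies on mm10 chromosome 15 at positions 61985391 to 61990374 on the plus strand. In wild type 14 Myc UMIs came from 9 of 32 members, or 87.3 CPM (47.7 to 146). In mutant 18 UMIs came from 14 of 161 members, or 28.2 CPM (16.7 to 44.5). The log2 ratio of mutant over wild type was -1.63 (-2.72 to -0.51). In other cells the Myc level was 44.1 CPM for wild type and 22.6 CPM for mutant. As the altered sites are not transcribed with Myc, its reads do not check the genotype labels.

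The Myc ratio rests on few molecules, and the dividing cells carried part of them. Members were divided by the share of their UMIs from DNA replication, mitosis and clustered histone genes, at 1% of UMIs, a limit set after the data were seen. The 5 wild type members at or above 1% held 7 of the 14 Myc UMIs, and the 35 such mutant members held 9 of the 18. Below 1%, 7 UMIs in 27 wild type members gave 58.5 CPM and 9 UMIs in 126 mutant members gave 22.9 CPM. That log2 ratio was -1.35 with an interval from -2.94 to 0.31, which includes 0. With every member thinned to 1500 UMIs, 3 Myc UMIs in 32 wild type and 4 in 159 mutant members were left.

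Ribosomal protein RNA took a smaller part of the mutant members' RNA. It made up 42.7% of all member UMIs in wild type and 30.3% in mutant, while in the other cells it made up 30.7% and 28.4%. By cell, the wild type members ran from 30.2% to 54.4% with a median of 41.2%, and the mutant members from 14.1% to 44.8% with a median of 31.4%. The ranges overlap, but the quartile ranges do not, with quartiles of 39.2% and 44.7% in wild type and 28.1% and 34.2% in mutant. Of 84 ribosomal protein genes that passed the level filter 83 were lower in the mutant members, with a median log2 ratio of -0.49. Rps12 was at 4035 CPM in wild type and 2274 CPM in mutant (log2 ratio -0.83, -0.96 to -0.69), and Rps14 at 9616 and 8785 CPM (-0.13, -0.21 to -0.05). Members with under 1% of cell cycle UMIs had medians of 41.4% in wild type and 32.6% in mutant.

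**Figure D2:**
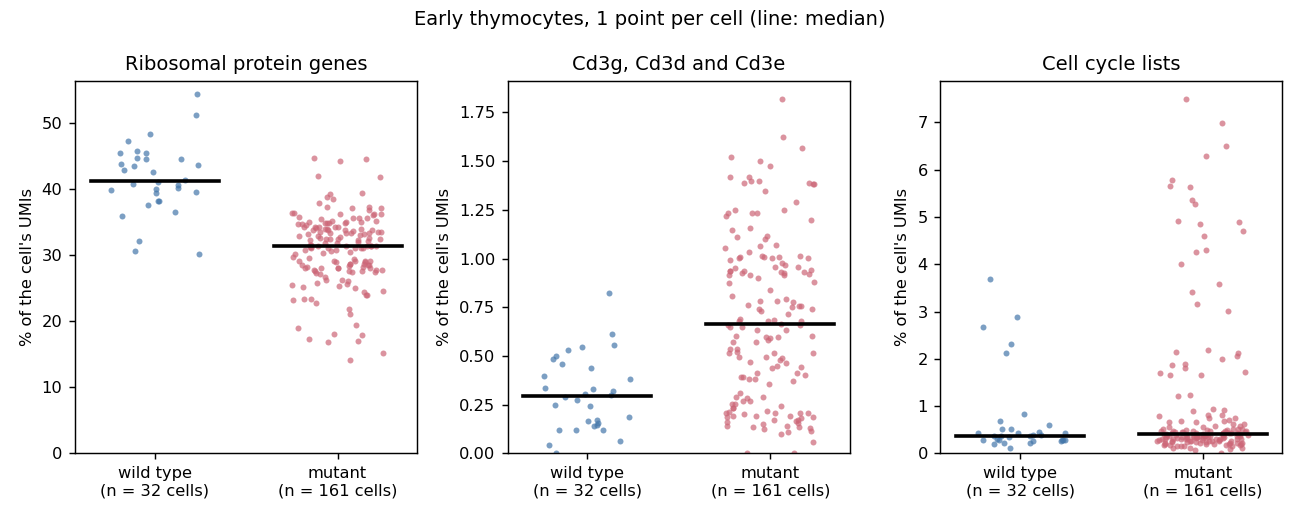
Each point is 1 member, 32 wild type and 161 mutant, with its percentage of UMIs from ribosomal protein genes (left), from Cd3g, Cd3d and Cd3e (middle) and from the cell cycle lists (right); black lines are medians. The ribosomal median is 41.2% in wild type and 31.4% in mutant, the CD3 median 0.294% and 0.667%, and a minority of cells in each library lies above 1% in the cell cycle lists.

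CPM values share a total, so a lower ribosomal part raises the CPM of other genes. Of the 2553 genes 1833 (71.8%) were higher and 720 lower in mutant members, and the median log2 ratio was 0.28, against 0.04 for the same genes in the other cells. At least 2-fold higher were 210 genes (8.23%), and at least 2-fold lower were 12 (0.47%). With totals that leave out ribosomal protein genes, mitochondrial genes and Malat1, 4024 genes passed the same level filter and their median was -0.02. Of these 4024, 179 were at least 2-fold higher and 146 at least 2-fold lower, so these counts are over another set of genes. With median-of-ratios size factors the median was 0.13, with 129 and 29 of 2559 genes. Ratios below are read against the median of 0.28, and counts of higher genes against the share of 71.8%. Both hold for all members with CPM only. Under other settings the all-gene median differs, so the share of 71.8% is no background for counts there. The signs of gene groups that change with the scaling are named.

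Of the 12 highest ranked genes Ifi202b stood apart. Ifi202b, an interferon-inducible gene of the Ifi200 cluster on chromosome 1 (positions 173962568 to 173982744), had 0 UMIs in the wild type members and 226 UMIs in 96 of the 161 mutant members, or 354 CPM. Against a floor of 3 UMIs over the wild type members it was at least 18.9-fold higher in mutant. In the other cells Ifi202b had 0.464 CPM in wild type and 82.6 in mutant. Ifi203 and Mndal, of the same gene family, had log2 ratios of 1.80 (0.95 to 2.78) and 0.78 (0.04 to 1.60) in members, and Ifi203 was at 41.2 CPM and 180 CPM in the other cells. Genes of this family have near-identical copies between which reads can be split, so these values are uncertain. The difference was present in the other cells too, the strain of the animals is not given in the sources used here, and the part of strain background was not tested.

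The other 11 were spread over several functions, and most had few wild type UMIs. Cd82, a tetraspanin gene, had 2 wild type and 63 mutant UMIs (12.5 and 98.6 CPM), with a log2 ratio of 2.98 (1.07 to 6.06). Hcls1, an actin regulator of blood cells, had 2 and 59 UMIs, with a log2 ratio of 2.89 (0.97 to 5.97). Cxcr4, the chemokine receptor that acts with the pre-T cell receptor at beta-selection, had 3 and 59 UMIs (18.7 and 92.4 CPM; 2.30, 0.69 to 4.62). Csrp1, a LIM domain gene, had 62.4 and 266 CPM (2.09, 1.18 to 3.18), and Gsr, glutathione reductase, 62.4 and 283 CPM (2.18, 1.27 to 3.27). Rrm2 and Nasp, which serve DNA synthesis and histone supply, had log2 ratios of 2.26 and 2.42. H1fx had 2 wild type UMIs, both in 1 cell. With every cell thinned to 1500 UMIs before the gate, the log2 ratios of Cd82, Hcls1, Nasp and Psmb7 were 0.94, 0.63, 0.35 and 0.47. Zfp512, Ppp1r11 and Psmb7 were the remaining ones.

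The 12 lowest ranked genes were mostly of low level too. Zfos1, a noncoding RNA gene whose name places it opposite a zinc finger gene, had the most UMIs: 89 in wild type and 138 in mutant, or 555 and 216 CPM (log2 ratio -1.36, -1.76 to -0.96). Bst2, an interferon-inducible surface gene, had 293 and 139 CPM (-1.07, -1.60 to -0.53). Ipo7, a nuclear import receptor gene, had 13 and 14 UMIs (81.1 and 21.9 CPM; -1.89, -3.09 to -0.68), and Gsto1, a glutathione transferase gene, 15 and 21 UMIs (93.5 and 32.9 CPM; -1.51, -2.53 to -0.45). Dqx1 had 57.1% of its 21 wild type UMIs in 1 cell. With cells thinned, Dqx1 was at -0.48 and Ecd at -0.061, and Leng8 turned to 0.60. Ecd, Lcmt1, Ube4a, Zfp329, Mospd3, Leng8 and Myc were the others.

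**Figure D3:**
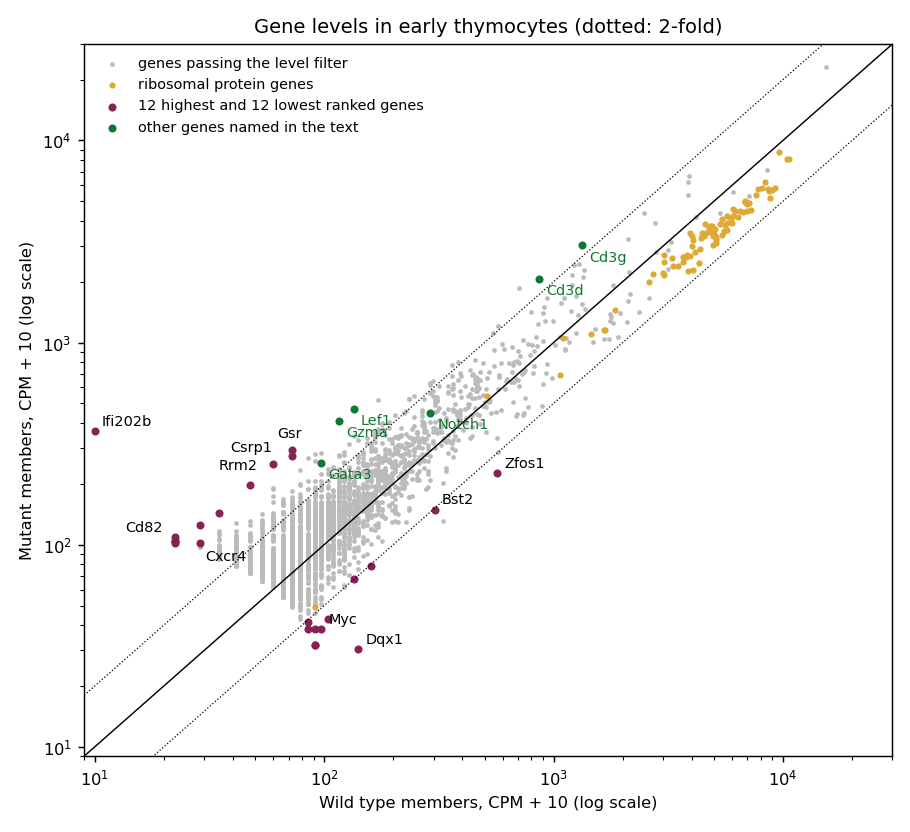
Each point is 1 of the 2553 genes, with its level in wild type members (x axis) and mutant members (y axis) as CPM plus 10, both on log scales; the solid line marks equal levels and the dotted lines 2-fold. Of the ribosomal protein genes (gold) 83 of 84 lie below the line, Ifi202b, Cd3g, Cd3d and Lef1 above it, and Zfos1 and Myc below it.

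CD3 subunit genes, which build the signalling part of the T cell receptor, were higher in the mutant members. Cd3g, Cd3d and Cd3e lie side by side on chromosome 9, between positions 44969572 and 45009627. Cd3g stood at 1316 CPM in wild type and 3018 CPM in mutant (log2 ratio 1.20, 0.99 to 1.41). Cd3d stood at 854 and 2060 CPM (1.27, 1.01 to 1.53), and Cd3e at 443 and 812 CPM (0.88, 0.52 to 1.25). All 3 intervals lie above the all-gene median of 0.28. With every cell thinned to 1500 UMIs before the gate, Cd3g was at 1.43 but Cd3e at 0.12, against an all-gene median of 0.19. In the other cells Cd3g was at 968 and 1409 CPM and Cd3d at 877 and 1156 CPM, a smaller step between the libraries.

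By cell, the 3 genes together made up a median of 0.294% of UMIs in wild type members, with quartiles of 0.155% and 0.443%. In mutant members the median was 0.667%, with quartiles of 0.292% and 0.995%. The highest wild type member had 0.825% and the highest mutant member 1.82%, and both libraries held members at 0. Below 1% of cell cycle UMIs the medians were 0.304% and 0.787%. Dividing members had less in both libraries, with medians of 0.158% and 0.215%.

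The receptor signalling list as a whole, with the CD3 genes in it, had a lower median. Of its 15 genes that passed, 13 were higher and 2 lower, beside 71.8% of all genes higher. Their median log2 ratio was 0.48 against 0.28 for all genes. With totals without ribosomal, mitochondrial and Malat1 UMIs it was 0.22, where the all-gene median was -0.02. Lck, the kinase that starts receptor signalling, had 985 and 1266 CPM (0.36, 0.11 to 0.62). The adaptor gene Lat had 829 and 1057 CPM (0.35, 0.08 to 0.63). Ptpn22, a phosphatase that dampens signalling, had 4 wild type and 67 mutant UMIs (2.07, 0.65 to 3.99). Themis, at 212 and 210 CPM, and Sla, at 62.4 and 43.8 CPM, were the lower ones. Zap70, the kinase bound to CD3, did not pass the filter, with 1 and 32 UMIs (3.01, 0.42 to 8.35). Constant region genes of the receptor chains were not analysed here. A list of genes of mature CD4 or CD8 single-positive thymocytes moved with these genes: 11 of 11 that passed were higher, with a median of 0.72, and its sum was 3711 CPM in wild type members and 5890 CPM in mutant members. B2m, an MHC class I gene, led that list, with 205 of its 595 wild type and 1563 of its 3763 mutant UMIs. In the other cells the median of that list was 0.86. The part of more mature cells in the CD3 values was not tested.

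Transcription factors of the T lineage differed among themselves. Of 18 that passed, 15 were higher and 3 lower in mutant, beside 71.8% of all genes higher. Their median log2 ratio was 0.42, or 0.10 with totals without ribosomal, mitochondrial and Malat1 UMIs. Lef1, a partner of WNT signalling that acts at beta-selection, had 20 wild type and 295 mutant UMIs, or 125 and 462 CPM (1.89, 1.24 to 2.62). Lef1 was at 196 and 470 CPM in the other cells. Gata3 had 14 and 156 UMIs, or 87.3 and 244 CPM (1.48, 0.69 to 2.39), and 80.3 and 135 CPM in other cells. When every cell was thinned to 1500 UMIs before the gate, the Gata3 log2 ratio was -0.06.

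Tcf12 and Tcf3, which encode the E proteins HEB and E2A, had log2 ratios of 1.13 (0.42 to 1.92) and 0.90 (0.16 to 1.72). Ikzf1, which encodes Ikaros, had 0.98 (0.26 to 1.77). Id3, an inhibitor of E proteins that receptor signals induce, had 4 and 56 UMIs (1.81, 0.38 to 3.74). Tcf7, which encodes the NOTCH-induced factor TCF-1, stood at 692 and 642 CPM (-0.11, -0.42 to 0.21). Bcl11b, the factor of T commitment, stood at 680 and 803 CPM (0.24, -0.06 to 0.55), and Runx1 at 212 and 182 CPM (-0.22, -0.79 to 0.37). The interval of each of these last 3 includes 0. That of Tcf7 lies below the all-gene median of 0.28, and those of Bcl11b and Runx1 include it.

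**Figure D4:**
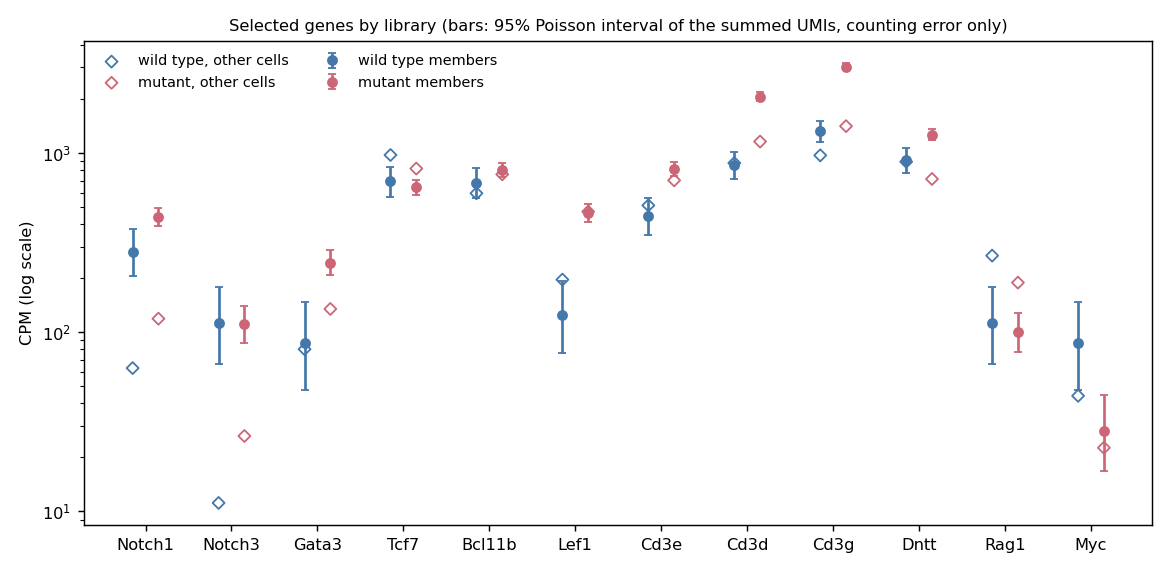
Filled circles give CPM in wild type (blue) and mutant (red) members on a log axis, with bars for the 95% Poisson interval of the summed UMIs; open diamonds give the other cells of the same library. Cd3g reaches 3018 CPM in mutant members against 1316 in wild type, Myc 28.2 against 87.3, and Notch1 and Notch3 lie above the other cells in both libraries.

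Of the NOTCH pathway genes outside the gate, Notch1 was higher in the mutant members, with an interval that includes the all-gene median of 0.28. The interval of Notch3 included 0. Of 26 genes 4 passed the level filter, 3 of them higher, beside 71.8% of all genes, with a median log2 ratio of 0.02. With the other scalings this median was negative, -0.28 with totals without ribosomal, mitochondrial and Malat1 UMIs and -0.11 with size factors. Notch1 had 45 wild type and 280 mutant UMIs (0.64, 0.19 to 1.13). Notch3, with 18 and 71 UMIs, had a log2 ratio of -0.01 (-0.78 to 0.82), and Dtx3 0.01 (-0.86 to 0.97). Lfng, a glycosyltransferase that tunes NOTCH receptors, did not pass the filter and had 10 and 15 UMIs (-1.41, -2.66 to -0.09).

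Genes of receptor gene rearrangement were also measured. Dntt, which adds untemplated nucleotides at the joints, had 911 and 1263 CPM (0.47, 0.22 to 0.74), while in other cells it had 892 and 715 CPM. Rag1, a subunit of the recombinase, had 112 and 100 CPM (-0.16, -0.94 to 0.68) and was below the other cells in both libraries, at 267 and 189 CPM. Rag2 had 5 and 26 UMIs (0.38, -1.02 to 2.12). The interval of each recombinase gene includes 0.

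Genes that receptor signals or cytokines act through gave the following values. Ccnd2, a D cyclin gene, stood at 337 and 275.5 CPM (-0.29, -0.74 to 0.18). Its interval includes 0 but lies below the all-gene median of 0.28. Ccnd3, the D cyclin of beta-selection, stood at 281 and 551 CPM (0.97, 0.52 to 1.45). Il7r, which encodes the receptor chain for the survival cytokine IL-7, had 12 and 62 UMIs (0.38, -0.53 to 1.40). Bcl2, a survival gene that IL-7 signals maintain, had 218 and 451 CPM (1.05, 0.54 to 1.60). Btg1, an antiproliferative gene, had 281 and 607 CPM (1.11, 0.67 to 1.59).

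Genes that MYC activates in ribosome biogenesis and growth were split in direction over all members. Of 38 that passed 20 were higher and 18 lower, and their median log2 ratio was 0.01 against 0.28 for all genes. In the other cells their median was -0.22, against 0.04 for all genes. The list sum there was 10167 CPM in wild type and 8295 CPM in mutant. The median in members turned negative with totals without ribosomal, mitochondrial and Malat1 UMIs (-0.35, with 39 of 49 genes lower) and with size factors (-0.13). The all-gene medians in these settings were -0.02 and 0.13. Srm, the enzyme gene of spermidine synthesis, had 131 CPM in wild type and 65.7 CPM in mutant (-0.99, -1.78 to -0.16). Hspe1, a mitochondrial chaperone gene, had 723 and 426 CPM (-0.76, -1.08 to -0.44), and Npm1, a nucleolar chaperone gene, 1759 and 1265 CPM (-0.48, -0.67 to -0.27). Ran, which powers nuclear transport, had 437 and 690 CPM (0.66, 0.29 to 1.05), and Eif5a, a translation factor gene, 649 and 942 CPM (0.54, 0.24 to 0.85).

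In members with under 1% of cell cycle UMIs, 31 of 37 genes of this list were lower in mutant and 6 higher, with a median log2 ratio of -0.37, against 0.20 for all genes in those cells. Their sum was 9109 CPM in wild type and 6517 in mutant, while in the dividing members it was 13715 and 14688 CPM. In the less cycling members Npm1 was at 1621 and 948 CPM (-0.77, -1.03 to -0.52), Hspe1 at 702 and 298 CPM (-1.24, -1.65 to -0.81) and Ran at 242 and 278 CPM (0.20, -0.40 to 0.84).

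The elongation factor genes Eef1a1, Eef1b2 and Eef1g were lower in mutant members. Eef1a1 had 7128 and 5297 CPM (-0.43, -0.53 to -0.33), Eef1b2 1646 and 1035 CPM (-0.67, -0.88 to -0.46) and Eef1g 1727 and 1030 CPM (-0.75, -0.95 to -0.54). The translation factor list as a whole, with 15 of 28 genes higher, had a median of 0.07, which was -0.21 and -0.07 with the other scalings. Mitochondrially encoded genes were lower in 10 of 12, with a median of -0.19. But with cells thinned to 1500 UMIs 7 of 12 were higher, with a median of 0.023 against 0.19 for all genes. Nuclear genes of oxidative phosphorylation were higher in 61 of 73, beside 71.8% of all genes. Their median was 0.36, which was 0.08 with totals without ribosomal, mitochondrial and Malat1 UMIs and 0.16 with cells thinned.

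Actin cytoskeleton genes were higher in mutant in 27 of 27, with a median log2 ratio of 0.71. With totals without ribosomal, mitochondrial and Malat1 UMIs 25 of 29 were higher, where the all-gene median was -0.02. The list sum was 13919 CPM in wild type and 22139 CPM in mutant members. In the other cells it was 26663 and 38910 CPM, with a median log2 ratio of 0.37. Actb had 3835 and 6194 CPM (0.69, 0.57 to 0.82). Cap1, which recycles actin monomers, had 5 wild type and 75 mutant UMIs (1.91, 0.63 to 3.58). MHC class I genes, which mature cells carry more of, included H2-D1 at 162 and 512 CPM (1.66, 1.08 to 2.29) and B2m at 1278 and 2447 CPM (0.94, 0.73 to 1.15). Chaperone and stress genes of the endoplasmic reticulum were higher in 8 of 9, beside 71.8% of all genes. With cells thinned 4 of 7 were higher (median 0.10, against 0.19 for all genes). Pdia3 had 68.6 and 161 CPM (1.23, 0.33 to 2.28). Malat1, a nuclear noncoding RNA, made up a median of 1.31% of UMIs in wild type and 2.55% in mutant members. In the other cells its medians were 1.81% and 3.19%.

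**Figure D5:**
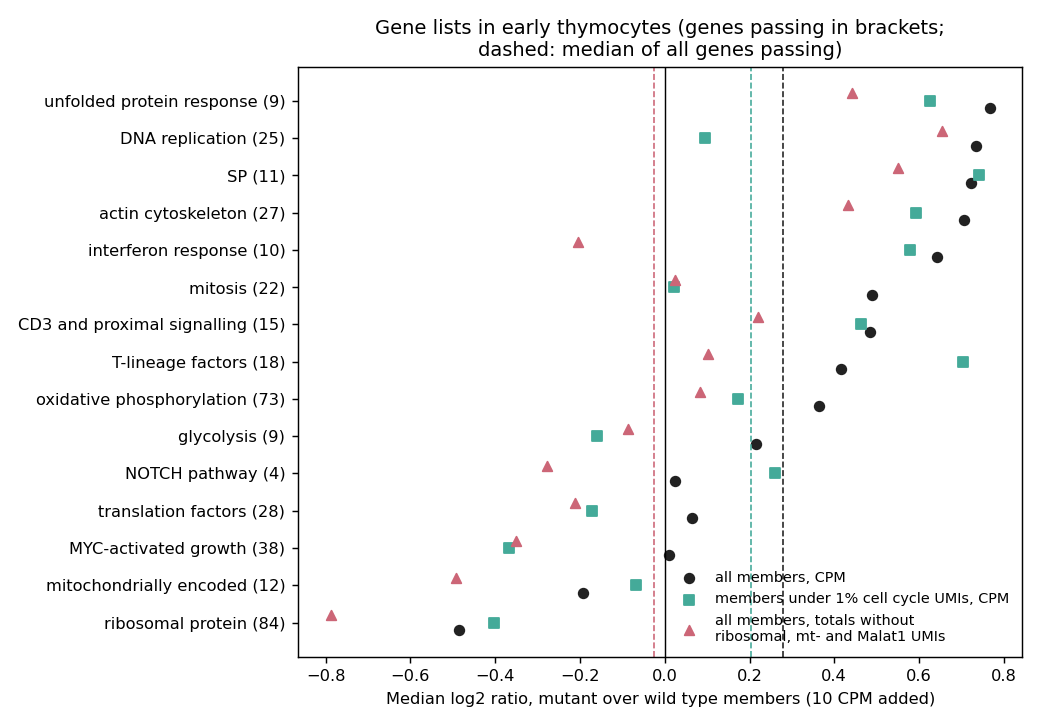
Median log2 ratio of mutant over wild type members for 15 gene lists, over all members (black), over members with under 1% cell cycle UMIs (green) and over all members with totals that leave out ribosomal, mitochondrial and Malat1 UMIs (red); dashed lines give the median of all genes, 0.28, 0.20 and -0.02. Ribosomal protein genes lie lowest in each; the green points of DNA replication and mitosis follow from the split, which was made on those genes.

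Dividing cells were a minority of the members of both libraries. At least 1% of UMIs came from the cell cycle lists in 5 of 32 wild type members (15.6%, 5.28 to 32.8) and 35 of 161 mutant members (21.7%, 15.6 to 28.9). With cells thinned to 1500 UMIs these were 5 of 32 and 37 of 159, with 2 shallower mutant members left out. Between 0.5% and 2% lay 5 wild type and 33 mutant members, so the limit cuts a range. Before thinning, members at or above 1% held 40684 of the 160351 wild type and 246464 of the 638838 mutant member UMIs. Summed levels weight them accordingly.

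Among DNA replication genes 21 of 25 were higher in mutant members, beside 71.8% of all genes. Their median log2 ratio was 0.73 in members and -0.48 in the other cells. The direction turned with every cell thinned to 1500 UMIs before the gate. There 3 of 8 were higher, with a median of -0.14 against 0.19 for all genes. Pcna, the clamp of DNA polymerase, had 17 and 172 UMIs (1.34, 0.62 to 2.16), and Rrm2, a subunit of ribonucleotide reductase, had 8 and 153 UMIs (2.26, 1.25 to 3.50). Mitosis genes were higher in 17 of 22, beside 71.8% of all genes, with a median of 0.49 in members and -0.66 in the other cells. The median in members was 0.023 with totals without ribosomal, mitochondrial and Malat1 UMIs, where the all-gene median was -0.02. Among members with at least 1 Il2ra UMI 10 of 21 mitosis genes were higher, with a median of -0.0047 against 0.25 for all genes. Birc5, which encodes survivin, had 8 and 97 UMIs (1.61, 0.57 to 2.86).

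Levels by Il2ra itself are a description only, since Il2ra is a gate gene and cells without it entered through the other gate genes. In mutant, the 29 members with no Il2ra UMI had Plac8 at 372 CPM and Cdk6 at 651 CPM, against 1377 and 1174 CPM in the 132 members with at least 1. Cd3g was at 1644 and 3403 CPM, Notch3 at 42.9 and 130 CPM, and Mpzl2 at 14.3 and 158 CPM. Pcna ran the other way, at 550.5 CPM without Il2ra RNA and 190 with it, as did Tcf7 at 958 and 553 CPM and Lef1 at 622 and 417 CPM. The median share of cell cycle UMIs was 1.21% and 0.402%. In wild type Plac8 and Cdk6 ran the other way: the 5 members without Il2ra RNA had Plac8 at 2158 CPM and Cdk6 at 1169 CPM, against 1405 and 1043 CPM in the other 27.

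Markers of other cell types were sparse in most members, apart from genes that thymocytes also express, and some were detected in mutant members only. The mutant members were 161 cells with 638838 UMIs, against 32 cells with 160351 UMIs in wild type. Counts of detected genes and of UMIs are therefore not comparable between the libraries. In the innate lymphocyte list 4 of 19 genes were detected in wild type and 8 in mutant. The list had 0 to 4 UMIs per wild type member and 0 to 28 per mutant member. It had 3 or more UMIs in 5 of 32 wild type and 48 of 161 mutant members, and 10 or more in 0 and 9. The list summed to 212 CPM in wild type and 625 CPM in mutant members. It was led by Gzma, a granzyme gene, with 17 and 256 UMIs (106 and 401 CPM; log2 ratio 1.92, 1.21 to 2.72), which was found in 11 and 70 members. Klrd1, Ncr1, Tbx21 and Eomes were at 0 in both. Of the 29 Xcl1 UMIs in mutant 93.1% came from 1 cell. The B cell list was led by Ly6d, a surface gene of lymphoid progenitors, with 136 and 780 UMIs, while Pax5 and Ebf1 were at 0. The macrophage list had at most 5 and 6 UMIs per member, with Csf1r, Adgre1 and Mrc1 at 0. The dendritic list had at most 6 and 14, led by Bst2 with 47 of 74 UMIs in wild type and 89 of 219 in mutant. Granulocyte genes had 0 and 2 UMIs and erythroid genes 1 and 8.

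Genes linked to gamma-delta T cells gave 25 and 173 UMIs over 14 genes, or 156 and 271 CPM, with 2 mutant members at 10 or more. Sox13, a factor of that lineage, had 0 and 14 UMIs in 0 of 32 and 9 of 161 members. The part of such cells in the differences was not tested. Without members that had 3 or more UMIs of the innate, B cell, macrophage, dendritic, granulocyte and erythroid lists, not counting the leading genes Gzma, Ly6d, Cst3 and Bst2, 28 wild type and 128 mutant members were left. In them the Myc log2 ratio was -1.51, that of Cd3g 0.95, the ribosomal median -0.48 and the median of the CD3 and signalling list 0.66.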

How the data were processed

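The deposited tables hold whole-number UMI counts, not normalized, with 1 value for each barcode and gene symbol, made by the authors with Cell Ranger and the genome build mm10, per the submitters' processing notes, with the version not given in the sources used here. The counts covered 27933 gene symbols. No cell type annotation was used, no clustering was made and no doublet caller was run; an alternative left out the 5% of members with most UMIs.

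UMIs were summed over the members of each library and divided by their total (CPM), with exact Poisson intervals. For single genes the log2 ratio was taken without an added amount, with exact conditional (binomial) intervals; rankings, list medians and counts of 2-fold genes used 10 CPM added on both sides. Ranked genes had a mean of at least 50 CPM and 20 UMIs in all, which 2553 genes met, and 2396 remained without gate, mitochondrial, ribosomal protein, X-inactivation, Y-linked, haemoglobin, receptor segment and unnamed genes. Named were the 12 highest and 12 lowest by ratio, the 15 highest and 8 lowest in members over other cells in both libraries, and members of 42 gene lists. A gene that ranked among these and a marker of another cell type are not reported here. Lists are described by counts and medians only. The members and the lists were chosen with earlier results of these data known. Scripts used Python 3.11.15 with numpy 2.4.6, scipy 1.17.1 and pandas 2.3.3, and were tested on simulated data. Gene positions came from GENCODE M21, in which 26646 symbols were found. Alternatives changed the gate, the depth, the scaling, the amount added and the level filter. The split by cell cycle UMIs and the removal of other cell types without leading genes were chosen after seeing the data.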

Additional observations from a re-analysis of the deposited data

How the results depend on the processing

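With 1 library per genotype no replicate could be left out, and counting intervals do not cover the spread between animals. No paired analysis was possible because each genotype has 1 library. Depth limits low genes most: Myc has 32 UMIs in all members. Its log2 ratio stayed within its interval under every setting run, but that interval is wide and the settings draw mostly on the same UMIs. With every cell thinned before the gate, 4 wild type and 4 mutant Myc UMIs remained. Without members with 3 or more UMIs of other cell type lists, 1 and 1 remained. The ribosomal median was negative under every setting. Counts of 2-fold genes given below without a total are over 2505 to 2590 genes. List medians and counts of 2-fold genes that moved follow, with single genes that reversed. The cause was not tested.

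With a gate sum of at least 2 the growth list was at -0.15 and mitosis at 0.26. With at least 5, 21 genes were lower and the ribosomal list was at -0.47. With at least 1 Il2ra UMI the mutant share was 7.63%, 25 genes were lower, and the lists were at -0.47 (ribosomal), -0.16 (growth) and -0.0047 (mitosis, reversed). Thinned to 1500 UMIs, 325 of 1791 genes were higher and 50 lower, with ribosomal -0.36, growth -0.26, mitosis 0.33 and DNA replication -0.14. DNA replication thus reversed, as did Leng8 (0.60), Gata3 (-0.061) and Plac8 (0.67). In that setting 11 further named genes left their interval, Cd3e (0.12) and Nasp (0.35) among them, and 19 stayed within it. With the same lower UMI limit the CD3 list was at 0.63. Without the 5% of members with most UMIs, 20 genes were lower, with ribosomal -0.46, growth -0.26, mitosis 1.04 and CD3 0.37.

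Without members with 3 or more UMIs of other cell type lists, 5 and 20 members were left (0.373% and 1.16%). In them 49 of 351 genes were higher, with ribosomal -0.29, growth -0.35, DNA replication 1.87, mitosis 1.57 and CD3 0.65. With leading genes not counted, the mutant share was 7.39%, 29 genes were lower, mitosis was at 0.30 and CD3 at 0.66. Totals without ribosomal, mitochondrial and Malat1 UMIs gave 146 lower genes of 4024, ribosomal -0.79, growth -0.35, mitosis 0.023 and CD3 0.22. Size factors gave 129 higher and 29 lower genes, ribosomal -0.64, growth -0.13, mitosis 0.35 and CD3 0.35. A mean over cells gave 21 lower genes, ribosomal -0.43, growth -0.17 and DNA replication 0.44. Adding 2 CPM gave 25 lower genes. A filter of 20 CPM gave 501 higher and 88 lower genes of 5344, mitosis 0.25 and CD3 0.72. No filter gave 1103 and 218 of 11595 genes, growth -0.087 and CD3 0.66. In members under 1% of cell cycle UMIs the mutant share was 7.28%, 32 genes were lower, and the lists were at -0.40 (ribosomal), -0.37 (growth), 0.094 (DNA replication) and 0.022 (mitosis), and Rrm2 reversed to -0.49; the values of cell cycle genes follow from that split.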

Other observations

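Cells that passed the gate except for a Cd4, Cd8a or Cd8b1 UMI numbered 93 in wild type and 155 in mutant, beside 32 and 161 members, with median depths of 9936 and 5440 UMIs. Ptcra gave 48.8% of their gate UMIs in wild type and 28.4% in mutant, against 8.26% and 10.1% in the members. At least 1% of UMIs came from the cell cycle lists in 75 of 93 and 86 of 155 of them. Myc stood at 82.9 CPM in wild type, from 86 UMIs, and 21.9 CPM in mutant, from 24 UMIs. Cd3g stood at 803 and 1428 CPM and Lef1 at 120 and 552 CPM. The median share of ribosomal protein UMIs was 34.2% and 24.5%. Cdk6 had 175 and 310 CPM in them, below the level of about 1060 CPM in the members of each library. Plac8 had 224 and 239 CPM in these cells with coreceptor RNA.

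Stress and immediate early genes had a sum of 4122 CPM in wild type members and 4430 CPM in mutant members, with Hspa8, a constitutive chaperone gene, at 917 and 700 CPM and Dnajb1, a heat shock gene, at 37.4 and 105 CPM.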
